A study of Mus musculus with 10 samples.

Results

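Solute carriers are membrane proteins that move sugars, amino acids, metals, nucleotides and other small molecules across the plasma membrane and the membranes of organelles. Families are numbered by sequence. Slc2 holds the facilitative glucose transporters, and Slc7 with its heavy chain Slc3a2 the exchangers of large neutral and cationic amino acids. Slc30 and Slc39 hold zinc exporters and importers, Slc25 the carriers of the inner mitochondrial membrane, and Slc35 the nucleotide sugar transporters of the Golgi apparatus. In blood cells that depend on a growth factor, the uptake of glucose and amino acids is a known target of cytokine signals. The genes described here are those whose platform symbol reads Slc, a number and a letter. They were 262 genes in 49 families, measured by 419 probe sets, of 12394 genes and 22690 probe sets on the array. A gene was represented by the probe set with the highest mean over the 10 arrays, and 3 probe sets that name an Slc gene together with other genes were left out. The symbol also takes in a few proteins that carry no solute, namely Slc4a1ap, also known as kanadaptin, and Slc9a3r1 and Slc9a3r2, scaffold proteins that bind to sodium-proton exchangers. They are kept and named as such.

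The measurements come from 32Dcl3 cells, a clonal line of mouse myeloblasts dependent on IL-3. After removal of IL-3 by washing, the cells received actinomycin D at 10 µg/ml, which blocks transcription, and then high (1 ng/ml) or low (0.01 ng/ml, labelled as 10 pg/ml) IL-3 for 2 h or 4 h. A 0 h sample from the same divided culture served both doses. The 5 groups were high IL-3 at 2 h and 4 h, low IL-3 at 2 h and 4 h, and 0 h, each with 2 Affymetrix mouse arrays, from experiments 1 and 2. All groups carried actinomycin D according to the sample titles, but another label field places the 0 h cells before its addition. In these bulk arrays, fewer cells and less RNA per cell cannot be told apart. The arrays of an experiment came from a single divided culture. The fit takes up the difference in level between these 2 cultures. The p-values therefore measure how the differences between groups varied between the cultures.

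Array medians lay between 48.8 and 70.6 and the 75th percentiles between 314.6 and 499.8 intensity units, and precision is limited by 2 arrays per group. Of 13 myeloblast markers, 10 had a mean intensity of at least 50, among them Mpo, Ctsg, Prtn3, Myb, Il3ra and Csf2rb, but Elane, Kit and Cd34 did not reach it. The mast cell and basophil genes Cpa3, Mcpt8 and Fcer1a (3 of 8 listed) and the macrophage genes Adgre1, Cd68 and Csf1r (3 of 6) also reached 50, and none of the 4 erythroid or 6 lymphoid markers did. None of these markers was called for the IL-3 dose, but several changed with time. At 4 h 7 of 10 tested myeloblast markers fell in each dose, and 1 rose under high and 2 under low IL-3. Of all genes tested, 40.6% fell under high and 43.6% under low IL-3, and 9.11% and 13.7% rose. Mcpt8 rose by 0.98 under high and 1.38 under low IL-3, Fcer1a by 0.88 and 0.57, and Cd68 by 0.61 and 0.92. In experiments 1 and 2, the summed intensity of the 13 myeloblast markers was 13160.3 and 7238.4 at 4 h under high IL-3, 12869 and 7809.8 at 4 h under low IL-3, and 17440.6 and 11723.7 at 0 h. The summed intensity of the 8 mast cell and basophil genes was 1305.7 and 2401.8 at 4 h under high IL-3, 1327.3 and 2728.9 at 4 h under low IL-3, and 1187 and 1820 at 0 h. That of the 6 macrophage genes was 3288.2 and 3463 at 4 h under high IL-3, 3250.6 and 3760.8 at 4 h under low IL-3, and 3300.2 and 3521.9 at 0 h. Their part in the changes of the transporters over time was not tested.

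A mean intensity of at least 50 over the 10 arrays was required for a test, and all differences are on the scale of log2(intensity + 16), which understates those of dim genes. Of the 262 solute carrier genes 119 (45.4%) met it, against 6792 of all 12394 genes (54.8%). Of the 143 that did not, 135 were under 50 in the mean of every group and 8 reached 50 in at least 1 group. Conversely, 10 of the 119 tested genes had a group mean under 50, and for 3 of them this was the 0 h group. Intensities of different probe sets are not comparable as levels, so no ranking of the transporters by abundance is given. The mitochondrial carriers had the largest tested share, 27 of 33 genes, followed by the nucleotide sugar transporters with 14 of 18 and the metal and haem transporters with 21 of 27. Single families differed, with 3 of 15 Slc6 genes, 1 of 11 Slc5 genes, 1 of 8 Slc12 genes and 2 of 18 Slc22 genes tested, but 9 of 10 Slc39 and 2 of 2 Slc20 genes. Of the amino acid and peptide transporters 16 of 49 were tested, of the sugar transporters 9 of 26 and of the carboxylate and organic ion transporters 9 of 43. Of the inorganic ion members 12 of 39 were tested, of the vitamin, choline and lipid transporters 9 of 20, and of the nucleoside transporters 1 of 5, the lysosomal carrier Slc29a3. The cystine transporter Slc7a11, with intensities of 34.7 to 55.2 over the 10 arrays, and the iron exporter Slc40a1, with 5.12 to 23.3, were among those not tested.

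**Figure D1:**
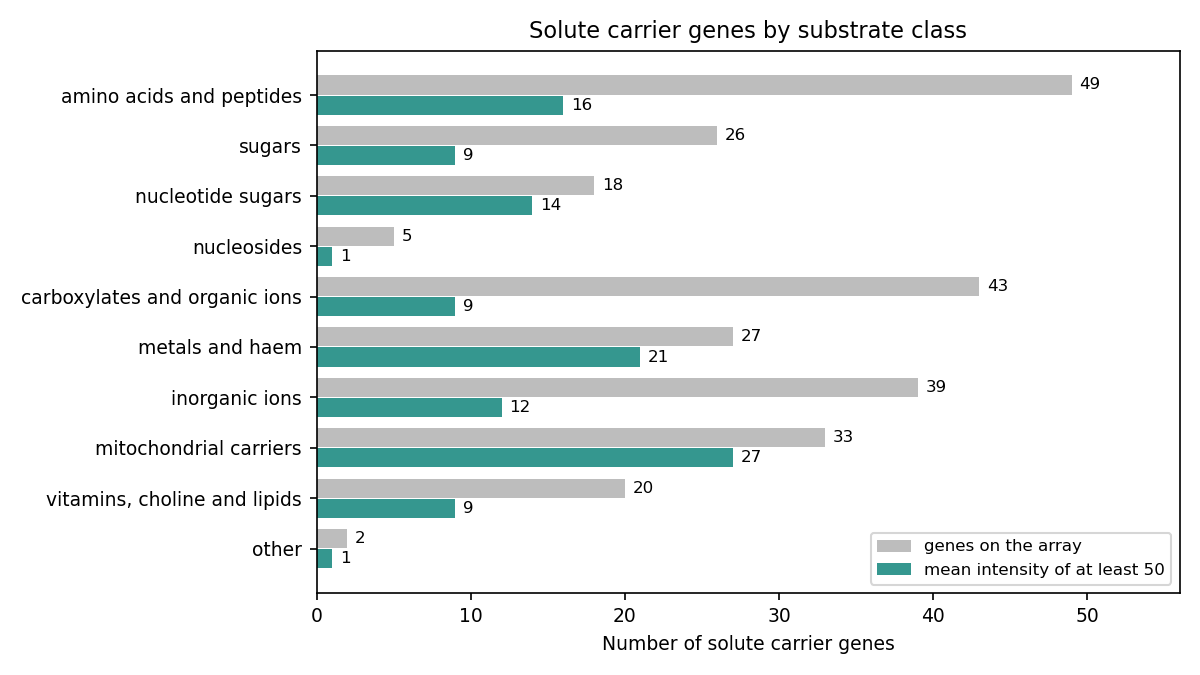
Number of solute carrier genes on the array (grey bars) and of those with a mean intensity of at least 50 over the 10 arrays (green bars), by substrate class; the class other holds the Slc66 family. The mitochondrial carriers (27 of 33), nucleotide sugar transporters (14 of 18) and metal and haem transporters (21 of 27) had the largest tested shares among classes of more than 5 genes.

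The dose question was whether RNA of transporter genes stayed higher with the high than with the low dose. Slc2a1, which encodes the glucose transporter GLUT1, did, and it was the only one of the 119 tested genes called, that is, past the threshold of the adjusted p. Averaged over 2 h and 4 h, 1 of 119 solute carrier genes was higher under high IL-3 and 0 were lower, against 0.869% and 0.0147% of all genes tested (limma, Benjamini-Hochberg threshold of 0.05 over the 11856 probe sets tested). A single gene is thus close to the background share. At an unadjusted p under 0.05 there were 12 such genes in either direction, against 8.6% of all genes. The median difference, high minus low IL-3, was 0.010 on the log2 scale for the solute carrier genes and -0.005 for all genes. Taken separately, the 2 h arrays gave 0 calls against 0.0736% of all genes higher and 0% lower, and 14 genes at an unadjusted p under 0.05, against 6.64% of all genes. The 4 h arrays also gave 0 calls, against 0.486% higher and 0.0147% lower, and 13 genes at an unadjusted p under 0.05, against 8.08%. The change of the dose effect between 2 h and 4 h gave 0 calls, against 0% of all genes, and 10 genes at an unadjusted p under 0.05, against 5.36%.

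GLUT1 is the basal glucose importer of most proliferating cells. At 0 h Slc2a1 read 1446 and 1731 in experiments 1 and 2. Under high IL-3 Slc2a1 read 824 and 862 at 2 h and 304 and 443 at 4 h. Under low IL-3 Slc2a1 read 606 and 478 at 2 h and 161 and 269 at 4 h. Both high IL-3 arrays were above both low IL-3 arrays at 2 h and at 4 h, and all 8 later arrays were below both 0 h arrays. At 4 h, 23.3% ± 3.21 of its 0 h intensity under high IL-3 and 13.3% ± 3.09 under low IL-3 was left (SD, n = 2 experiments, as for all such shares). The log2 difference, high minus low IL-3, was 0.70 (SE 0.13, adjusted p = 0.0202) over both times and was positive in 4 of 4 pairs of arrays. It was 0.63 at 2 h (adjusted p = 0.394) and 0.77 at 4 h (adjusted p = 0.114). The half-life, taken as ln 2 over the slope of the logarithm of the ratio to 0 h, was 1.95 ± 0.0997 h under high IL-3 and 1.35 ± 0.0454 h under low IL-3 (SD, n = 2).

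Both other probe sets of Slc2a1 went the same way on the same arrays, in 4 of 4 pairs each, with differences of 0.61 (SE 0.12, adjusted p = 0.031) and 0.52 (SE 0.12, adjusted p = 0.0502). The call of the representative probe set rested on several single arrays, with differences between 0.52 and 0.65 when they were left out. The adjusted p was 0.0681 without the experiment 1 array taken at 2 h under high IL-3 and 0.106 without the experiment 2 array taken at 4 h under high IL-3. It was 0.126 without the experiment 2 array taken at 2 h under low IL-3 and 0.257 without the experiment 1 array taken at 4 h under low IL-3. The call was also lost without the filter on intensity (adjusted p = 0.136), without the trend of variance on intensity (adjusted p = 0.172) and with no block for the experiment (adjusted p = 1). It was kept with scaling to a common 75th percentile (adjusted p = 0.0296), quantile normalization (adjusted p = 0.0403) and centring on the median gene (adjusted p = 0.0406).

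**Figure D2:**
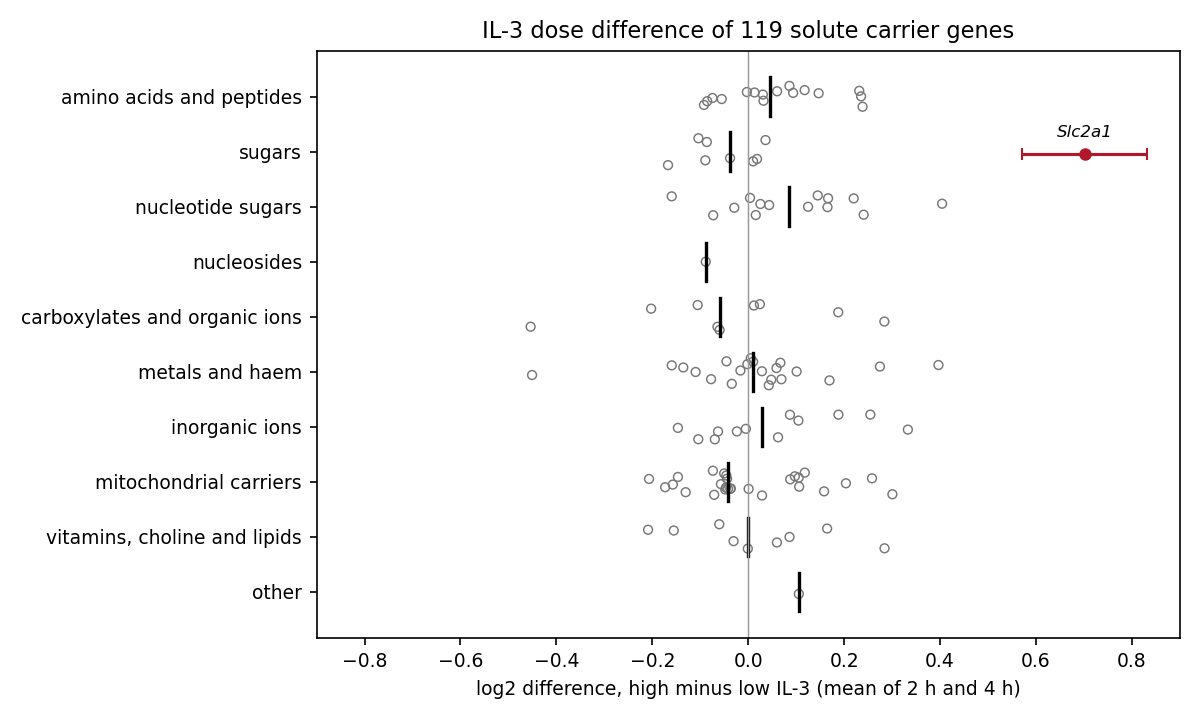
Log2 difference between high and low IL-3 (high minus low, mean of 2 h and 4 h) of each of the 119 tested solute carrier genes, by substrate class, with points spread vertically for visibility. Filled: called at the 0.05 threshold, with its standard error; open: not called; black bars: class medians. Slc2a1, at 0.70, is the only filled point, and all others lie between -0.45 and 0.40.

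The other genes with large dose differences did not pass the test. Slc35e1, a Golgi family member of unknown substrate, differed by 0.40 (SE 0.12, adjusted p = 0.181). Slc35e1 had intensities of 164 and 207 at 0 h. With high IL-3 Slc35e1 stood at 189 and 206 after 2 h and at 138 and 169 after 4 h, against 121 and 184 after 2 h and 109 and 108 after 4 h with low IL-3. Both of its high IL-3 arrays were above both low IL-3 arrays at each time. Slc30a6, which loads zinc into the early secretory pathway together with Slc30a5, differed by 0.40 (SE 0.13, adjusted p = 0.261) and the phosphate importer Slc20a1 by 0.33 (SE 0.11, adjusted p = 0.274). These 3 genes were higher with high IL-3 in 4 of 4 pairs of arrays, as were 16 of the 119 genes (13.4%, against 11.1% of all genes tested). The mitochondrial 2-oxoglutarate carrier Slc25a11 kept 101% ± 3.82 of its 0 h intensity under high IL-3 and 85.1% ± 9.0 under low IL-3 at 4 h, with a dose difference of 0.20 (SE 0.07, adjusted p = 0.329). The pyrimidine nucleotide carrier Slc25a33 differed by 0.30 (SE 0.12, adjusted p = 0.431). In the other direction, 4 of 119 genes (3.36%, against 7.44% of all genes) were lower with high IL-3 in all pairs. They were the vesicular monoamine transporter Slc18a1, with -0.45 (SE 0.14, adjusted p = 0.2), Slc25a20, Slc35b1 and Slc39a3.

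The zinc exporter Slc30a1 had a difference of -0.45 (adjusted p = 0.642). The 0 h arrays gave intensities of 115 and 147 for Slc30a1. Its intensities under high IL-3 were 106 and 126 at 2 h and 16.98 and 115 at 4 h, and under low IL-3 they were 93.9 and 177 at 2 h and 92.6 and 97.5 at 4 h. The experiment 1 array taken at 4 h under high IL-3 stood apart below all others. Without the experiment 2 array taken at 4 h under high IL-3 the difference of -0.86 would have been called (adjusted p = 0.0234). Slc22a17, Slc25a51 and Slc46a3 completed the lowest 5 differences, at -0.20, -0.21 and -0.21. The monocarboxylate transporter Slc16a1 differed by 0.19 (SE 0.09, adjusted p = 0.631), and without the experiment 2 array taken at 2 h under high IL-3 its difference of 0.34 would have been called (adjusted p = 0.0343).

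The study ranked probe sets by a g_score, the area between the decay curves of both doses divided by the spread between experiments seen in probe sets of similar intensity. Recomputed from the intensities, the top 1000 of 22690 probe sets held 16 of the 419 solute carrier probe sets (3.82%, against 4.41% of all), and the representative probe set of 12 of 262 genes (4.58%, against 4.95% of all genes). Slc2a1 was at rank 64, Slc25a11 at 183, Slc20a1 at 215, Slc35e1 at 230 and the acetyl-CoA transporter Slc33a1 at 264. The 7 others were Slc25a33, Slc37a1, Slc30a6, Slc35a5, Slc35c1, Slc41a1 and Slc16a1. The rank of Slc2a1 was 196 in experiment 1 alone and 53 in experiment 2 alone, and 287 where ratios above 1 under high IL-3 were not set to 1.

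The second question was which transporter RNAs were lost during the block. At 4 h, 38 of the 119 genes (31.9%) were lower than at 0 h under high IL-3 and 41 (34.5%) under low IL-3, against 40.6% and 43.6% of all genes tested. Higher were 12 (10.1%) under high IL-3 and 12 (10.1%) under low IL-3, against 9.11% and 13.7%. At 2 h under high IL-3, 24 genes (20.2%) were lower and 4 (3.36%) higher, against 27.6% and 3.05% of all genes. At 2 h under low IL-3, 22 genes (18.5%) were lower and 1 (0.84%) higher, the nucleotide sugar transporter Slc35a4, against 27.5% and 1.47%. With transcription blocked, the study's methods treat later values above that at 0 h as measurement noise. A rise here means a higher normalized intensity than at 0 h, and whether RNA was made anew was not tested. The rises at 4 h rested on few arrays. Under high IL-3 they numbered 2 without the 4 h array and 4 without the 0 h array of experiment 2, and under low IL-3 they numbered 6 and 5. The rises at 2 h under high IL-3 numbered 1 without the 0 h array of experiment 2 or the 2 h array of experiment 1, and those under low IL-3 numbered 0 without the 0 h or the 2 h array of experiment 2 and 5 without the 0 h array of experiment 1. The falls at 2 h under low IL-3 numbered 14 without the 0 h array of experiment 1 or the 2 h array of experiment 2. The doses share their 0 h arrays, so these counts are not independent of each other. At 4 h, 34 genes were lower in both doses and 9 higher in both. A further 7 were lower under low IL-3 alone and 4 under high IL-3 alone, 59 were called in neither dose, and 0 were called in opposite directions.

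These counts depend on the scale. As deposited, the median log2 change of all genes at 4 h was -0.164 under high and -0.213 under low IL-3, and that of the solute carrier genes -0.030 and -0.111. Scaling each array to a common 75th percentile moved the median of all genes to 0.247 and 0.209. On that scale 57 of the 119 solute carrier genes were higher and 23 lower under high IL-3, against 46.6% and 25.8% of all genes. Under low IL-3, 56 of the 119 were higher and 25 lower, against 45.1% and 28.4%. Centring each array on the median gene, an alternative chosen after seeing the data, gave 34 higher and 31 lower under high IL-3 (28.6% and 26.1%, against 26.6% and 33.7% of all genes). Under low IL-3 it gave 32 higher and 34 lower (26.9% and 28.6%, against 32% and 35.4%). The changes called in the text kept their direction on these scales and with quantile normalization except where stated, and intensity values carry no measure of the total RNA per cell.

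**Figure D3:**
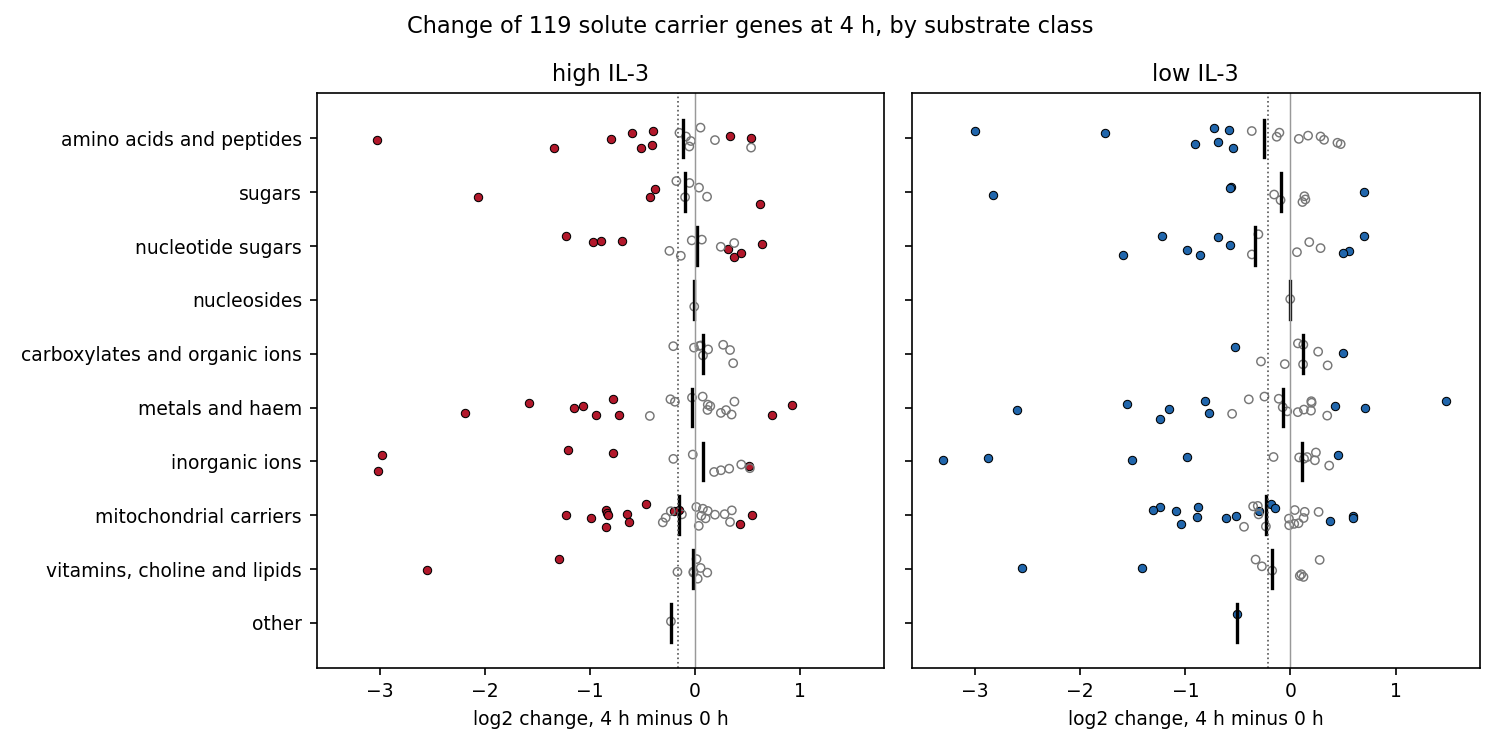
Log2 change of intensity at 4 h relative to 0 h of the 119 tested solute carrier genes by substrate class, under high IL-3 (left) and low IL-3 (right), with points spread vertically for visibility. Filled: called at the 0.05 threshold; open: not called; black bars: class medians; dotted line: median of all genes tested (-0.164 and -0.213). Each dose has a tail of genes with falls of more than 2 on the log2 scale, and the rises reach 0.92 under high and 1.48 under low IL-3.

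The class counts from here on stand beside the shares of all genes tested at 4 h. These were 40.6% lower and 9.11% higher under high IL-3, and 43.6% and 13.7% under low IL-3. Among the sugar transporters, 3 of 9 tested genes fell and 1 rose at 4 h in each dose. Slc2a1 fell, with log2 changes of -2.06 under high IL-3 (adjusted p = 1.43e-07) and -2.83 under low IL-3 (adjusted p = 4.83e-09). GLUT3, encoded by Slc2a3, is the high-affinity importer of the same family. At 0 h Slc2a3 read 4231 and 4639.9 in experiments 1 and 2. Under high IL-3 Slc2a3 read 3313 and 3735 at 2 h and 3474 and 3304 at 4 h. Under low IL-3 Slc2a3 read 3785 and 3781 at 2 h and 2898 and 3097 at 4 h. All of its later arrays were below both 0 h arrays, and 76.7% ± 7.7 of its 0 h intensity under high IL-3 and 67.6% ± 1.23 under low IL-3 was left at 4 h. Its smaller change, -0.39 under high IL-3 (adjusted p = 0.000214) and -0.56 under low IL-3 (adjusted p = 3.73e-06), was 0.04 under high and -0.12 under low IL-3 with scaling to the 75th percentile, with both calls lost. The glucose-6-phosphate carrier of the endoplasmic reticulum, Slc37a4, changed by -0.42 under high IL-3 (adjusted p = 0.023) and -0.57 under low IL-3 (adjusted p = 0.00301). With the 75th percentile Slc37a4 was at -0.01 and -0.14 and was not called (adjusted p = 0.948 and 0.27). The urate transporter Slc2a9 rose, by 0.61 under high and 0.70 under low IL-3. Slc2a9 had intensities of 97.4 and 19.8 at 0 h. With high IL-3 Slc2a9 stood at 109.8 and 33.9 after 2 h and at 148 and 41.9 after 4 h, against 114 and 51.8 after 2 h and 119.8 and 63.2 after 4 h with low IL-3. These intensities were low, and experiment 1 lay above experiment 2 in every group. Its call was lost without the 0 h array of experiment 2 (adjusted p = 0.325 under high and 0.184 under low IL-3), the experiment 1 array taken at 4 h under high IL-3 (adjusted p = 0.217) or the experiment 2 array taken at 4 h under low IL-3 (adjusted p = 0.214). Slc2a8, Slc2a5, Slc37a3, Slc50a1 and Slc5a2 were called in neither dose.

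Of the 16 amino acid and peptide transporters tested, 7 fell in each dose, and 2 rose under high IL-3 and 0 under low IL-3. Slc38a2 encodes SNAT2, a sodium-coupled importer of small neutral amino acids whose gene is known to respond to amino acid shortage. The 0 h arrays gave intensities of 2835 and 2113 for Slc38a2. Its intensities under high IL-3 were 888 and 311 at 2 h and 516 and 157 at 4 h, and under low IL-3 they were 675 and 203 at 2 h and 474 and 177 at 4 h. All later arrays were below both 0 h arrays, and experiment 2 lay below experiment 1 in every group. The change at 4 h was -3.02 under high IL-3 (adjusted p = 1.45e-08) and -3.00 under low IL-3 (adjusted p = 1.37e-08). The half-life was 1.25 ± 0.385 h under high IL-3 and 1.17 ± 0.307 h under low IL-3. Its relative Slc38a1 was called in neither dose (-0.09 under high and -0.11 under low IL-3). Slc15a4, the histidine and peptide transporter of endosomes and lysosomes, fell to 31.7% ± 2.26 of its 0 h intensity under high IL-3 and 20.1% ± 5.12 under low IL-3. The neutral amino acid transporters Slc1a4 and Slc1a5 changed by -0.41 under high and -0.73 under low IL-3 and by -0.40 under high and -0.58 under low IL-3, and the GABA transporter Slc6a13 by -0.60 under high and -0.69 under low IL-3, all called in both doses. Under high IL-3 Slc1a4 was at 0.04 with quantile normalization and Slc1a5 at 0.02 with the 75th percentile. These scalings also ended the calls on Slc1a4 (-0.29 with quantile normalization) and Slc1a5 (-0.15 with the 75th percentile) under low IL-3, and the 75th percentile those on Slc6a13 (-0.19 under high and -0.26 under low IL-3). Slc7a4 rose under high IL-3 (0.53), a call lost without the 0 h array of experiment 1 (adjusted p = 0.171) or the 4 h array of experiment 2 (adjusted p = 0.396).

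The subunits of the CD98 exchangers are a heavy chain, Slc3a2, which brings its partners to the plasma membrane, and several light chains. At 0 h Slc3a2 read 2918 and 3350.1 in experiments 1 and 2. Under high IL-3 Slc3a2 read 1771 and 2368 at 2 h and 1452 and 2207 at 4 h. Under low IL-3 Slc3a2 read 1705 and 2074 at 2 h and 1253 and 2181 at 4 h. In each experiment, its later arrays were all below the 0 h array, and it fell, with changes of -0.80 under high IL-3 (adjusted p = 2.59e-05) and -0.91 under low IL-3 (adjusted p = 5.43e-06). Slc7a5 encodes the light chain of LAT1, the importer of large neutral amino acids. Slc7a5 had intensities of 981 and 2330.1 at 0 h. With high IL-3 Slc7a5 stood at 1234 and 2334 after 2 h and at 1203 and 2476 after 4 h, against 1081 and 2517 after 2 h and 1169 and 2474 after 4 h with low IL-3. Experiment 2 was above experiment 1 on every array. Within the experiments, 8 of 8 later arrays were above their 0 h array, at 110.1% to 125.8% of it in experiment 1 and 100.2% to 108% in experiment 2. Its change at 4 h was 0.19 under high IL-3 (adjusted p = 0.121) and 0.17 under low IL-3 (adjusted p = 0.149). The light chain Slc7a6 was at 0.33 under high IL-3 (adjusted p = 0.0385) and 0.29 under low IL-3 (adjusted p = 0.0616). The high IL-3 call was lost without any one of 5 arrays, the 0 h array of experiment 2, either high IL-3 4 h array and either low IL-3 2 h array. The light chain Slc7a8, called in neither dose, was at 0.05 under high IL-3 (adjusted p = 0.78) and 0.32 under low IL-3 (adjusted p = 0.05), the second just short of the threshold. Slc7a7 was at -0.15 under high IL-3 (adjusted p = 0.538) and -0.55 under low IL-3 (adjusted p = 0.021). The call on Slc7a7 was lost without the 0 h array of experiment 2 (adjusted p = 0.12) or the experiment 1 array taken at 4 h under low IL-3 (adjusted p = 0.289). It was also lost with the 75th percentile (-0.15, adjusted p = 0.454), quantile normalization (-0.12, adjusted p = 0.564) and median centring (-0.33, adjusted p = 0.119). The difference between the heavy chain and its light chains was not tested.

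Among the 12 inorganic ion members tested, 4 fell and 1 rose in each dose. These falls included the largest of all 119 genes under low IL-3, that of Slc4a1ap, at -3.307. Under high IL-3 Slc4a1ap was at -3.019, next to Slc38a2 at -3.023. Kanadaptin is a nuclear protein and no transporter. The 0 h arrays gave intensities of 434 and 231 for Slc4a1ap. Its intensities under high IL-3 were 91.5 and 45.5 at 2 h and 27.8 and 22.6 at 4 h, and under low IL-3 they were 113 and 48.1 at 2 h and 24.2 and 12.2 at 4 h. All its later arrays were below both 0 h arrays and all at 4 h were under 50, near the low end of the scale. It kept 8.1% ± 2.43 of its 0 h intensity under high IL-3 and 5.44% ± 0.188 under low IL-3 at 4 h. Both type III sodium-phosphate importers fell as well. At 0 h Slc20a2 read 591 and 518 in experiments 1 and 2. Under high IL-3 Slc20a2 read 264 and 171 at 2 h and 66.5 and 47.2 at 4 h. Under low IL-3 Slc20a2 read 273 and 172 at 2 h and 65.1 and 57.8 at 4 h. The doses overlapped at both times, and all later arrays were below both 0 h arrays. The change of Slc20a2 was -2.98 under high IL-3 (adjusted p = 1.68e-09) and -2.88 under low IL-3 (adjusted p = 1.95e-09). Its other tested probe set was at -0.37 (adjusted p = 0.0743) and -0.40 (adjusted p = 0.0498), so the probe sets of this gene disagree in size. Slc20a1 had intensities of 661 and 599.6 at 0 h. With high IL-3 Slc20a1 stood at 416 and 389 after 2 h and at 324 and 213 after 4 h, against 366 and 258 after 2 h and 262 and 171 after 4 h with low IL-3. High IL-3 was above low IL-3 for Slc20a1 within each experiment and time, but the groups overlapped across experiments at 4 h. Of Slc20a1, 42.3% ± 9.54 of its 0 h intensity under high IL-3 and 34.04% ± 7.82 under low IL-3 was left at 4 h. Slc9a3r1, the scaffold protein, changed by -0.78 under high and -0.99 under low IL-3. Slc9a8, a sodium-proton exchanger of the Golgi apparatus, changed by 0.51 under high IL-3 (adjusted p = 0.0226) and 0.45 under low IL-3 (adjusted p = 0.0344). The call on Slc9a8 was lost without any one of 2 arrays under high and 6 under low IL-3.

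Zinc transporters made up most of the 21 tested metal and haem transporters, with 6 Slc30 and 9 Slc39 genes, and most of the changes in this class. Of the 21, 7 fell and 2 rose under high IL-3, and 6 fell and 3 rose under low IL-3. The exporters of the secretory pathway fell. The 0 h arrays gave intensities of 635 and 409.8 for Slc30a6. Its intensities under high IL-3 were 258 and 209.8 at 2 h and 128 and 76.5 at 4 h, and under low IL-3 they were 257 and 117 at 2 h and 81.3 and 61.4 at 4 h. All later arrays were below both 0 h arrays, and the doses overlapped across experiments at 2 h and at 4 h. The half-life of Slc30a6 was 1.71 ± 0.023 h under high IL-3 and 1.38 ± 0.0066 h under low IL-3. Slc30a5 kept 32.2% ± 0.911 of its 0 h intensity under high IL-3 and 32.9% ± 4.93 under low IL-3 at 4 h. Slc30a7 kept 54.5% ± 2.17 of its 0 h intensity under high IL-3 and 55.7% ± 10.98 under low IL-3, a fall that was not called with the 75th percentile (-0.40 and -0.37). Slc39a6 is a zinc importer of the plasma membrane. At 0 h Slc39a6 read 2164 and 1654 in experiments 1 and 2. Under high IL-3 Slc39a6 read 1728 and 1296 at 2 h and 1035 and 769.6 at 4 h. Under low IL-3 Slc39a6 read 1716 and 1211 at 2 h and 961 and 735 at 4 h. All 4 arrays at 4 h were below all others. Its change was -1.07 under high IL-3 (adjusted p = 1.05e-07) and -1.16 under low IL-3 (adjusted p = 3.89e-08). Its second probe set was at -0.26 (adjusted p = 0.196) and -0.37 (adjusted p = 0.0596) and was not called. The metal importer Slc39a14 and the magnesium transporter Slc41a1 also fell in both doses, Slc39a14 with -0.72 under high and -0.81 under low IL-3 and Slc41a1 with -0.95 under high and -1.24 under low IL-3. Under high IL-3 the call on Slc39a14 was lost with the 75th percentile (-0.33, adjusted p = 0.0851) and quantile normalization (-0.29, adjusted p = 0.121). The zinc exporter Slc30a1 fell under high IL-3 (-1.15), a call lost without the 0 h array (adjusted p = 0.0754) or the 4 h array (adjusted p = 0.32) of experiment 1, and also with the 75th percentile (-0.79, adjusted p = 0.074) or quantile normalization (-0.77, adjusted p = 0.0998).

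Of the 9 tested Slc39 genes, 2 rose and 2 fell at 4 h under high IL-3, and 3 rose and 2 fell under low IL-3. Slc39a1 had intensities of 55.9 and 82.01 at 0 h. With high IL-3 Slc39a1 stood at 124 and 168 after 2 h and at 81.02 and 244 after 4 h, against 66.4 and 193 after 2 h and 147 and 321 after 4 h with low IL-3. Every later array of Slc39a1 was above the 0 h array of its experiment, and the spread between experiments was wide. Its change was 0.92 under high IL-3 (adjusted p = 0.00425) and 1.48 under low IL-3 (adjusted p = 5.83e-05). The high IL-3 call was lost without the 0 h array (adjusted p = 0.0856) or the 4 h array (adjusted p = 0.1) of experiment 2. The 0 h arrays gave intensities of 158 and 151 for Slc39a11. Its intensities under high IL-3 were 182 and 199.7 at 2 h and 268 and 266 at 4 h, and under low IL-3 they were 201 and 186 at 2 h and 259.6 and 267 at 4 h. All 4 arrays of Slc39a11 at 4 h were above all others, and the change of 0.73 under high and 0.71 under low IL-3 kept its call with each array left out. The iron and manganese importer Slc11a2 was called in neither dose, with 0.29 under high IL-3 (adjusted p = 0.18) and 0.13 under low IL-3 (adjusted p = 0.555). Neither were the copper transporter Slc31a1 and the haem transporter Slc48a1.

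The 27 tested members of the Slc25 family, carriers that exchange metabolites across the inner mitochondrial membrane, had 11 falls and 2 rises under high IL-3, and 11 falls and 3 rises under low IL-3. The ADP/ATP carriers and the phosphate carrier together supply ATP synthesis, and their changes were small. At 0 h Slc25a3 read 6994 and 6498 in experiments 1 and 2. Under high IL-3 Slc25a3 read 6593 and 5953 at 2 h and 6125 and 5619 at 4 h. Under low IL-3 Slc25a3 read 7027 and 6223 at 2 h and 6113 and 5773 at 4 h. All 4 arrays of this phosphate carrier at 4 h were below both 0 h arrays, and 87.02% ± 0.794 of its 0 h intensity under high IL-3 and 88.1% ± 1.01 under low IL-3 was left. The ADP/ATP carrier Slc25a5 kept 89.6% ± 1.98 of its 0 h intensity under high IL-3 and 90.4% ± 1.93 under low IL-3. The ADP/ATP carrier Slc25a4 kept 91.8% ± 8.6 of its 0 h intensity under high IL-3 and 81.5% ± 8.3 under low IL-3. The directions of these small changes depended on the scale. With the 75th percentile as the reference, Slc25a3 was at 0.23 under high and 0.26 under low IL-3, Slc25a5 at 0.27 and 0.30, and Slc25a4 at 0.15 under low IL-3. With centring on the median gene, Slc25a3 was at 0.04 under low IL-3 and Slc25a5 at 0.01 under high and 0.07 under low IL-3. Slc25a4 and Slc25a5 are closely related genes, several of their further probe sets can cross-hybridize, and their separate values are uncertain. The mitochondrial glutathione carrier Slc25a39 was called in neither dose, with 0.06 under high IL-3 (adjusted p = 0.472) and 0.12 under low IL-3 (adjusted p = 0.104).

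Larger falls were seen in other members of this family. Slc25a46 is a protein of the outer membrane involved in mitochondrial dynamics. Slc25a46 had intensities of 873 and 459.5 at 0 h. With high IL-3 Slc25a46 stood at 674 and 374 after 2 h and at 345 and 197 after 4 h, against 626 and 335 after 2 h and 314 and 192 after 4 h with low IL-3. All 4 arrays at 4 h were below both 0 h arrays, and experiment 1 lay above experiment 2 in every group. The half-life of Slc25a46 was 3.46 ± 0.274 h under high IL-3 and 3.14 ± 0.319 h under low IL-3. Both mitoferrins, which import iron for haem and iron-sulphur clusters, fell. Slc25a37 was left at 53.3% ± 2.36 of its 0 h intensity under high IL-3 and 64.8% ± 19.5 under low IL-3. Slc25a28 was left at 55.1% ± 10.6 of its 0 h intensity under high IL-3 and 52.99% ± 0.725 under low IL-3. Under low IL-3 the call on Slc25a37 was lost with the 75th percentile (-0.20, adjusted p = 0.204) and quantile normalization (-0.16, adjusted p = 0.304). The NAD carrier Slc25a51 changed by -0.99 under high and -0.89 under low IL-3. The dicarboxylate carrier Slc25a10 rose, at 0.54 under high IL-3 (adjusted p = 0.00793) and 0.59 under low IL-3 (adjusted p = 0.00367), and so did the glycine carrier Slc25a38, at 0.43 under high IL-3 (adjusted p = 0.0316) and 0.38 under low IL-3 (adjusted p = 0.0483). Under low IL-3 the carnitine-acylcarnitine carrier Slc25a20 rose, at 0.60 (adjusted p = 0.00236). Under high IL-3 Slc25a10 was not called without the 0 h array of experiment 1 (adjusted p = 0.0544) or the 4 h array of experiment 2 (adjusted p = 0.128). Slc25a38 was not called without any one of 4 arrays under high IL-3 and 7 under low IL-3. Slc25a20 was not called without the 0 h array (adjusted p = 0.0628) or the 4 h array under low IL-3 (adjusted p = 0.0579) of experiment 2.

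The 14 tested nucleotide sugar transporters moved in both directions, with 4 falls and 4 rises under high IL-3, and 6 falls and 3 rises under low IL-3. Slc35b4 fell, with -1.23 under high and -1.59 under low IL-3. Slc35b3, which carries the sulphate donor PAPS, fell with -0.97 under high and -1.22 under low IL-3. The CMP-sialic acid transporter Slc35a1 rose. The 0 h arrays gave intensities of 238 and 162 for Slc35a1. Its intensities under high IL-3 were 314 and 259 at 2 h and 311 and 316 at 4 h, and under low IL-3 they were 272 and 261 at 2 h and 316 and 339.7 at 4 h. All its later arrays were above both 0 h arrays. Its change was 0.63 under high IL-3 (adjusted p = 0.00446) and 0.70 under low IL-3 (adjusted p = 0.00189). Its second probe set changed by 0.53 (adjusted p = 0.0185) and 0.56 (adjusted p = 0.0113). Slc35a4 rose by 0.37 under high and 0.56 under low IL-3 and Slc35b1 by 0.31 and 0.50, and Slc35c2 rose under high IL-3 (0.43). Of these calls, only those of Slc35a4 and Slc35b1 under low IL-3 were kept with each array left out. The others were lost without the 0 h array of experiment 2 (Slc35a1, Slc35a4, Slc35b1) or of experiment 1 (Slc35c2), or without 1 or both of the high IL-3 4 h arrays. Without the 0 h array of experiment 2, the adjusted p of Slc35a1 was 0.106 under high and 0.0532 under low IL-3.

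Of the 9 carboxylate and organic ion transporters tested, 0 fell and 0 rose under high IL-3 (1 gene at an unadjusted p under 0.05), and 1 fell and 1 rose under low IL-3. The lactate and pyruvate transporter MCT1 is encoded by Slc16a1. At 0 h Slc16a1 read 1146 and 1808 in experiments 1 and 2. Under high IL-3 Slc16a1 read 1515 and 1692 at 2 h and 927 and 1669 at 4 h. Under low IL-3 Slc16a1 read 991 and 1691 at 2 h and 904 and 1544 at 4 h. Experiment 2 lay above experiment 1 in every group, and the groups overlapped. The change at 4 h was -0.21 under high IL-3 (adjusted p = 0.22) and -0.28 under low IL-3 (adjusted p = 0.0861), and the bile acid transporter relative Slc10a3 was likewise not called. Under low IL-3 the monocarboxylate transporter relative Slc16a6 fell (-0.53, adjusted p = 0.0212) and Slc18a1 rose by 0.50 (adjusted p = 0.0399). The fall of Slc16a6 was not called with the 75th percentile (-0.14, adjusted p = 0.449), quantile normalization (-0.12, adjusted p = 0.503) or median centring (-0.31, adjusted p = 0.116). The call on Slc18a1, whose 0 h intensities were 35.8 and 48.2, was lost without any one of 6 arrays.

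Of 9 tested vitamin, choline and lipid transporters, 2 fell and 0 rose in each dose. Slc33a1 brings acetyl-CoA into the endoplasmic reticulum and Golgi apparatus. Slc33a1 had intensities of 577 and 428 at 0 h. With high IL-3 Slc33a1 stood at 328 and 243 after 2 h and at 97.7 and 51.3 after 4 h, against 234 and 146 after 2 h and 78.6 and 64.7 after 4 h with low IL-3. At 2 h both high IL-3 arrays were above both low IL-3 arrays, and at 4 h the doses overlapped. The half-life of Slc33a1 was 1.56 ± 0.171 h under high IL-3 and 1.42 ± 0.0068 h under low IL-3. The thiamine transporter Slc19a2 fell to 38.03% ± 7.59 of its 0 h intensity under high IL-3 and 36.7% ± 17.6 under low IL-3. The folate transporter Slc19a1 (-0.17 under high and -0.17 under low IL-3) and the choline transporter relative Slc44a2 (0.02 under high and 0.12 under low IL-3) were called in neither dose. The nucleoside transporter Slc29a3 was not called either (-0.01 under high and -0.00 under low IL-3). Of the Slc66 family, Slc66a2 fell under low IL-3 (-0.50, adjusted p = 0.0135), a call lost without the 0 h array of experiment 2 (adjusted p = 0.0888) or the experiment 1 array taken at 4 h under low IL-3 (adjusted p = 0.104). Slc66a2 was at -0.09 with the 75th percentile (adjusted p = 0.568), -0.06 with quantile normalization (adjusted p = 0.704) and -0.29 with median centring (adjusted p = 0.0943).

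**Figure D4:**
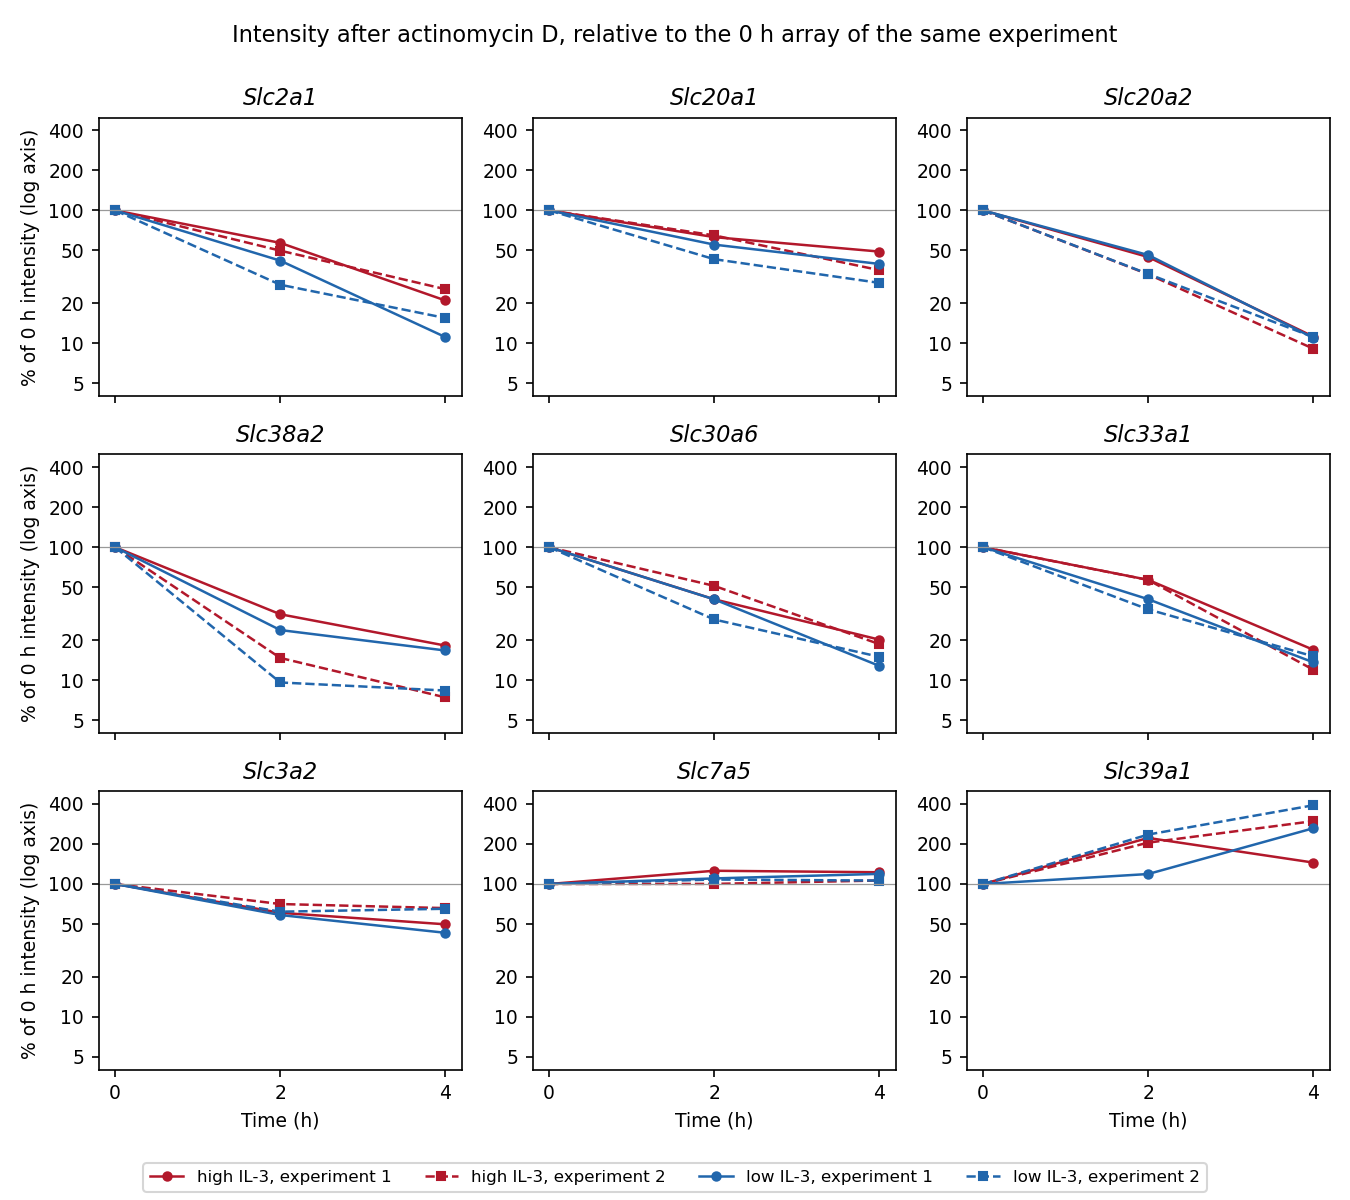
Intensity in percent of the 0 h intensity in that experiment (log axis) against time in h after actinomycin D and cytokine, for 9 solute carrier genes, with red for high IL-3, blue for low IL-3, circles and solid lines for experiment 1 and squares and dashed lines for experiment 2. Slc2a1 kept 23.3% under high and 13.3% under low IL-3 at 4 h on average, the curves of Slc20a2 lie on each other, Slc7a5 lies between 100.2% and 125.8%, and Slc39a1 rises with a wide spread between experiments.

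By class, the median log2 change at 4 h was taken relative to the median of all genes tested. It was 0.045 under high and -0.037 under low IL-3 for the amino acid and peptide transporters, 0.068 and 0.118 for the sugar transporters, and 0.179 and -0.123 for the nucleotide sugar transporters. It was 0.238 and 0.333 for the carboxylate and organic ion transporters, 0.133 and 0.139 for the metal and haem transporters, and 0.242 and 0.319 for the inorganic ion members. With quantile normalization the amino acid and peptide transporters were at 0.166 under high and 0.085 under low IL-3, so their direction under low IL-3 depends on the scale. The mitochondrial carriers were at 0.005 and -0.021, and the vitamin, choline and lipid transporters at 0.147 and 0.039. Single members ranged from -3.31 to 1.48 before that shift. A half-life under 4 h was found for 19 of the 119 genes under high and 21 under low IL-3, against 20.2% and 22.7% of all genes tested. With scaling to the 75th percentile these counts were 9 and 10 of the 119 genes, against 13.1% and 14.2% of all genes. With quantile normalization they were 8 and 10 of the 119, against 13.7% and 14.7%. It was under 2 h for 6 genes under high IL-3 (Slc4a1ap, Slc38a2, Slc20a2, Slc33a1, Slc30a6 and Slc2a1) and for 7 under low IL-3, the same 6 and Slc15a4, against 8.17% and 8.94% of all genes. The slope was downward in both experiments for 56 of the 119 genes under high and 53 of the 119 under low IL-3. Of all genes tested, these shares were 56% and 54.9%.

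Where several probe sets of a gene were called, their directions did not conflict. Of 37 genes with several tested probe sets, 24 had at least 1 called at 4 h under high IL-3 and 29 under low IL-3. Among these, 0 had probe sets called in opposite directions, and in 14 under high and 15 under low IL-3 some probe sets were called and others were not.

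The 2 cultures differed in the level of some transporters. Averaged over the 5 groups, the log2 difference, experiment 2 minus experiment 1, was 1.09 for Slc7a5 and for Slc48a1 and 0.93 for Slc39a1. It was -1.30 for Slc38a2, -1.37 for the amino acid exchanger subunit Slc7a7 and -1.58 for the anion exchanger Slc4a3. The block for the experiment in the fit takes up the average difference of each gene, but not its variation between groups. Over the groups, the difference ran from -1.658 to -0.421 for Slc38a2 and from 0.392 to 1.420 for Slc39a1.

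Partners and regulators of these transporters, from a list written from general knowledge, were measured beside them, with 17 of 19 genes tested. They include Txnip, which binds glucose transporters and promotes their removal from the plasma membrane, the ubiquitin ligases Nedd4 and Nedd4l, the transcription factor Nfe2l2, metal-responsive genes and the transferrin receptor Tfrc. For the dose, 1 of 17 was higher under high IL-3, against 0.869% of all genes tested. This was Nfe2l2, with a difference of 0.50 (SE 0.11, adjusted p = 0.0488), close to the threshold. At 4 h, 6 of 17 fell and 2 rose under high IL-3, against 40.6% and 9.11% of all genes tested. Under low IL-3, 7 of 17 fell and 4 rose, against 43.6% and 13.7%. Txnip fell, with changes of -2.17 under high and -2.22 under low IL-3, and so did Nfe2l2, with -2.90 and -3.46. Basigin, Bsg, the chaperone of MCT1, was at 0.18 under high IL-3 (adjusted p = 0.416) and rose by 0.50 under low IL-3 (adjusted p = 0.025), and Tfrc was not called. The ATP-driven ABC transporters are another large transporter superfamily. They gave 0 dose calls among 19 tested genes of 36, and 0 at an unadjusted p under 0.05, against 8.6% of all genes. At 4 h 2 of them fell and 2 rose under high IL-3, and 2 fell and 6 rose under low IL-3, beside the same shares of all genes. The difference between the superfamilies was not tested.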

How the data were processed

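The value table that the authors deposited holds probe set intensity on a linear scale, normalized across the 10 arrays with dChip (version not given in the sources used here) at its default settings. The platform annotation gave gene names (1 gene for 20393 of 22690 probe sets) and all 262 members matched an NCBI gene table entry. Values were taken to log2(intensity + 16), and limma 3.58.1 (R 4.3.3) fitted all 5 groups at once, blocked by experiment (4 residual degrees of freedom), over 11856 probe sets averaging at least 50. The fit was followed by eBayes with a variance trend and Benjamini-Hochberg adjustment over all of them at 0.05. Pairing follows the divided culture of each experiment; its arrays deviated together from their group means (correlations of 0.762 to 0.887), and arrays of a group correlated at 0.942 to 0.965. The g_score followed the study's supplemental methods. Python 3.11.15 with pandas 2.3.3, numpy 2.4.6 and matplotlib 3.10.9 served the rest. The fit was tested in 5 simulated runs, each with 200 of 11856 probe sets changed for the dose. It recovered 59.6% of log2 changes of -0.4 and 62.4% of those of 0.4. Of changes of -0.8 and 0.8 it recovered 98.8% and 99.6%. The runs drew independent normal noise with variances already smoothed by the fit, and their changes were equally often up and down. Recovery in the data may therefore be lower. Differences near 0.4 can thus be missed. Of the calls, 7.51% were false, above the threshold of 0.05, so the adjusted p was somewhat too low in these runs.

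Named genes were those called for the dose, the 5 highest and lowest by g_score or dose difference, the 10 brightest at 0 h, up to 12 falls and 10 rises at 4 h per dose, the 2 brightest of each class, and Slc3a2, Slc7a5, Slc7a6, Slc7a7, Slc7a8, Slc7a11, Slc2a1, Slc2a3, Slc11a2, Slc40a1, Slc25a4 and Slc25a5. Others, such as Slc37a4 and Slc1a4, were named after their values were seen. Members and lists were chosen with earlier results of these data known. No coordinates are given, as no build is named for the arrays. Alternatives were pseudocounts of 1 and 64, no filter or one at 200, 75th percentile scaling, quantile normalization, median centring, no block, no trend, and each array left out.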

Additional observations from a re-analysis of the deposited data

Results flagged for a closer look

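Slc2a1, the glucose transporter gene described above, was the solute carrier gene whose loss differed between the doses by a test of the difference itself: its log2 value under high IL-3 exceeded that under low IL-3 by 0.70 as the mean of 2 h and 4 h (limma, adjusted p = 0.0202), in 4 of 4 pairs of arrays. The difference between the 2 h and 4 h dose effects was 0.14 (adjusted p = 0.99). Over 19 alternatives with a test its adjusted p ranged from 0.00051 to 1 and missed the threshold in 7.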

How the results depend on the processing

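Of the 70 called changes at 4 h of named genes, 28 kept direction and call under every alternative run, among them the falls of Slc2a1, Slc38a2, Slc20a1, Slc20a2, Slc30a5, Slc30a6 and Slc33a1 in both doses. These genes were named in part for large called changes with the same sign in both experiments. Their share therefore does not stand for all called changes of solute carrier genes. Scaling reversed small changes: with the 75th percentile Slc25a3 was at 0.23 under high and 0.26 under low IL-3, Slc25a5 at 0.27 and 0.30, Slc25a4 at 0.15 under low and Slc2a3 at 0.0445 under high IL-3, and with median centring, added after seeing the data, Slc25a3 was at 0.0350 under low IL-3 and Slc25a5 at 0.0137 under high and 0.0712 under low IL-3. Precision is limited by the number of arrays, and the changes of dim genes by intensities near background. The cause of these shifts was not tested. The choice of members by updated symbol gave the same 262 genes, so it could not change a result. Other pseudocounts reversed no change of a named gene. Under low IL-3 the 4 h call on Slc18a1 was lost with a pseudocount of 1 (adjusted p = 0.0502). That on Slc25a38 was lost with 64 (adjusted p = 0.0525). Counts stayed within 1.5 times with other pseudocounts and with probe sets ending in _s_at or _x_at left out. For that omission only counts were compared. The results of single experiments without the other gave values and no test.

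Without the replicate block, 40 of the 70 changes lost their call. The counts of genes were then 0 higher for the dose, 0 higher and 0 lower at 2 h and 1 higher and 15 lower at 4 h under high IL-3, and 0 higher and 1 lower at 2 h and 1 higher and 15 lower at 4 h under low IL-3. Without a filter on intensity the dose effect had 0 calls and the 2 h change under low IL-3 had 0 rises, and without the variance trend these were 0 and 2. A filter at 200 left 24 falls at 4 h under high IL-3, and 7 rises and 26 falls under low IL-3. With the 75th percentile there were 27 rises and 14 falls at 2 h and 57 and 23 at 4 h under high IL-3, and 32 rises at 2 h and 56 rises and 25 falls at 4 h under low IL-3. Quantile normalization gave 22 rises and 14 falls at 2 h and 50 and 25 at 4 h under high IL-3, and 26 rises at 2 h and 49 at 4 h under low IL-3. Median centring gave 17 rises at 2 h and 34 at 4 h under high IL-3, and 9 and 32 under low IL-3.

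Leaving out each array in turn gave 0 to 2 genes higher and 0 to 1 lower for the dose, 0 to 1 called at 2 h and 0 to 1 at 4 h, 1 to 5 rises and 17 to 24 falls at 2 h and 2 to 14 rises and 27 to 38 falls at 4 h under high IL-3, and 0 to 5 rises and 14 to 23 falls at 2 h and 5 to 14 rises and 32 to 44 falls at 4 h under low IL-3; the top 1000 by g_score held 10 and 13 genes with a single experiment.

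Relative to the median gene, class medians at 4 h moved with quantile normalization, under high IL-3 to 0.189 for all solute carrier genes, 0.166 for amino acids and peptides, 0.155 for sugars, 0.368 for carboxylates and organic ions, 0.244 for metals and haem and 0.187 for vitamins, choline and lipids (0.096 with the 75th percentile), and under low IL-3 to 0.207, 0.085, 0.450 for carboxylates, 0.213 for metals, 0.157 for vitamins and -0.024 for nucleotide sugars. With the 75th percentile the medians under low IL-3 were -0.162 for nucleotide sugars and 0.109 for metals. Half-lives under 4 h numbered 9 under high and 10 under low IL-3 with the 75th percentile and 8 and 10 with quantile normalization, and the half-life of Slc2a1 became 2.50 h under high and 1.61 h under low IL-3, and 2.29 h and 1.53 h.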
